A study of Oryza sativa with 18 samples.

Results

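The regions described here are the R-loop peak regions on the 2 arms of rice chromosome 6, the one chromosome of 12 on which the RNaseH library had no peak. Peaks of the other 17 libraries were merged wherever they shared at least 1 bp, which gave 89277 regions across the genome. A merged region belonged to the short arm when its midpoint lay between 0 and 12.4 Mb of chromosome 6, and to the long arm when it lay beyond 18.4 Mb. By this rule 6158 regions (6.90% of all) were members, 3080 on the short arm and 3078 on the long arm. The 6 Mb between the bounds, called the middle here, held 1307 further regions and were not members. The RNaseH library held 123 peaks in all, with the most on chromosomes 12 (47), 1 (20) and 9 (18). Few lay on chromosomes 2 and 11 (4 each), 5 (3) and 7 (1), and 0 on chromosome 6. The chromosome was thus chosen by the RNaseH peak list, and which regions exist by the peaks of the other 17 lists, so the 0 and the membership are descriptions and carry no test. Those lists hold peaks down to a q-value of 0.01.

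An R-loop forms when an RNA strand pairs with its DNA template and displaces the other DNA strand. Such structures arise during transcription, are removed by RNase H enzymes that cut the RNA of the hybrid, and have been linked in plants to gene starts, antisense transcription and chromatin marks. Removal of the RNA by RNase H before labelling is the usual negative control of an R-loop map. Rice chromosome 6 carries on its short arm some of the best known genes of the species, among them Waxy, which sets the amylose content of the grain, and the flowering genes Hd3a and Hd1. No gene was assigned to a region, because the positions were not joined to an annotation of another assembly.

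The libraries came from genomic DNA of wild-type (WT) rice seedlings grown in a greenhouse, and R-loops were labelled in place with RNase H and a DNA polymerase before sequencing. An input series of 13 libraries started from 8, 5, 3 and 1 µg and from 500 and 250 ng of DNA, each with 2 libraries, and from 100 ng with 1 library. A salt experiment had 2 libraries of seedlings given 150 mM NaCl for 3 days, called salt, and 2 libraries of its control, called CK(salt). The treatment label of the CK(salt) libraries also reads as a salt treatment, so the control group rests on their titles. The labels do not say whether libraries of a group came from separate plants, so every p-value measures the spread between libraries, which may be technical. The total number of reads per library was not given in the sources used here. As a measure of depth, the background coverage implied by the deposited fold enrichment and p-value of each summit was used. It was 11.4 and 12.7 in the 8 µg libraries, 0.881 in the 100 ng library, between 4.82 and 7.84 in the other input libraries, 6.74 and 3.88 in salt, 8.60 and 4.30 in CK(salt), and 3.10 in the RNaseH library.

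The regions next to the bounds differed in how many libraries had them. The last short arm region, chr6:12366157-12367057, had a peak in 17 libraries, and the first region beyond the bound, chr6:12403407-12404636, in 15. The last region of the middle, chr6:18314367-18314618, and the first of the long arm, chr6:18454265-18454629, each had a peak in 1 library. Coordinates are those of the deposited peak lists, counted from 1, and their genome build was not given in the sources used here.

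The arms were covered much like the rest of the genome. There were 248 regions per Mb on the short arm and 240 on the long arm, against 239 over all chromosomes. Merged regions had a median span of 567.5 bp on the short arm, 558 bp on the long arm and 553 bp over all chromosomes, and they covered 16.9%, 16.1% and 16.0% of the sequence. The median gap between neighbouring regions was 2155 bp on the short arm and 2115 bp on the long arm. Gaps under 1 kb made up 28.3% and 29.3% of the gaps. The longest stretch without a peak in any of the 17 libraries was 130182 bp on the long arm, at chr6:30632136-30762317, and 58729 bp on the short arm, at chr6:11741124-11799852. The next longest on the long arm were chr6:18643292-18763791, near the bound, and chr6:29239826-29330746. On the short arm they were chr6:10214449-10273104 and chr6:10288602-10341057, which lie close together.

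The short arm held more peaks per Mb than the long arm in each of the 17 libraries, by a small margin. In the 8 µg libraries the short arm had 200.2 and 188.1 peaks per Mb and the long arm 190.5 and 176.6. In the 100 ng library the values were 42.3 and 39.0. Over the 17 libraries the ratio of short to long arm lay between 1.02 and 1.11. Over the 13 input libraries the mean log2 ratio was 0.09 ± 0.03 (SD, n = 13), or 1.07-fold, with the short arm higher in 13 of 13 (exact two-sided sign-flip test, p = 0.000244, the smallest it can give, adjusted p = 0.00061 over 5 arm comparisons). The mean log2 ratio was 0.07 in the 4 libraries of the salt experiment, again with the short arm higher in each.

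The excess of the short arm depended on where the arms were taken to end. Trimming 1 Mb from the ends of each arm left a log2 ratio of 0.041, or 1.03-fold, with an adjusted p of 0.00244 by the same exact test. The innermost 0.848 Mb of the long arm held 86 regions, or 101 per Mb. There the libraries had between 11.8 and 68.4 regions with a peak per Mb, with a median of 44.8. The innermost 0.4 Mb of the short arm held 84 regions, or 210 per Mb.

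**Figure D1:**
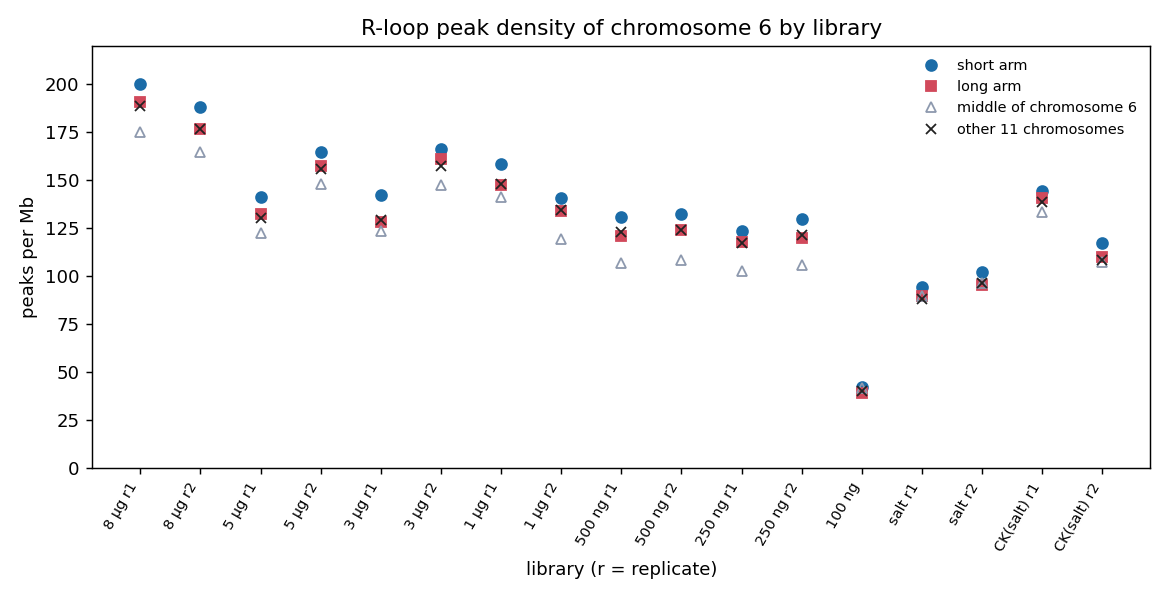
Peaks per Mb (vertical axis) in each of the 17 libraries (horizontal axis, r = replicate) for the short arm, the long arm, the middle of chromosome 6 and the other 11 chromosomes together. Each point is 1 library; the short arm lies above the long arm in each library, and the 100 ng library, at 42.3 and 39.0, lies below the others.

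Against the other 11 chromosomes, the arms together were denser by a similar small amount. The other chromosomes were taken whole, while the arms leave out the middle of chromosome 6, so the 2 sides are not alike. The mean log2 ratio over the 13 input libraries was 0.05 ± 0.01 (SD, n = 13), or 1.03-fold, in 13 of 13 libraries (exact sign-flip test, adjusted p = 0.00061). The short arm lay above the other chromosomes in 17 of 17 libraries and the long arm in 9 of 17. Trimming 1 Mb from the ends of each arm raised the log2 ratio to 0.11. Counting the whole of chromosome 6, middle included, lowered it to 0.016, above 0 in 9 of 13 libraries (exact sign-flip test, adjusted p = 0.0244). The middle was less dense than the arms in 16 of 17 libraries, with the 100 ng library, at a ratio of 1.02, as the exception. Its ratio to the arms was 0.899 in the 8 µg libraries, 0.849 in the 250 ng libraries, 0.976 ± 0.003 in salt and 0.941 ± 0.008 in CK(salt), each a mean of 2. Chromosome 6 as a whole ranked 4 or 5 of the 12 chromosomes by density in each library. Its short arm lay below chromosome 3 and its long arm above chromosome 12 in 17 of 17 libraries.

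Within each arm the regions were spread unevenly, in a shape that most libraries shared. Counted in 1 Mb windows from the chromosome end, the short arm held 206 to 297 regions per full window, with a median of 255.5. The window 5 to 6 Mb from the end was the densest, with 297 regions, and had the highest count in 11 of 17 libraries. Density fell towards the middle of the chromosome, with 209 regions at 10 to 11 Mb and 206 at 11 to 12 Mb. These windows had the lowest count in 7 and 10 of the 17 libraries, with ties counted in both, and the window 9 to 10 Mb from the end had it in 1.

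The long arm had another shape. Its outermost Mb was its sparsest full window, with 201 regions, and had the lowest count in 14 of 17 libraries. The window 2 to 3 Mb from the end held 277 regions and the window 10 to 11 Mb from the end 276, and these were the densest in 6 and 9 libraries. The share of regions with a peak in all 17 libraries ranged over the windows from 8.85% to 14.0% on the short arm and from 8.00% to 15.0% on the long arm.

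**Figure D2:**
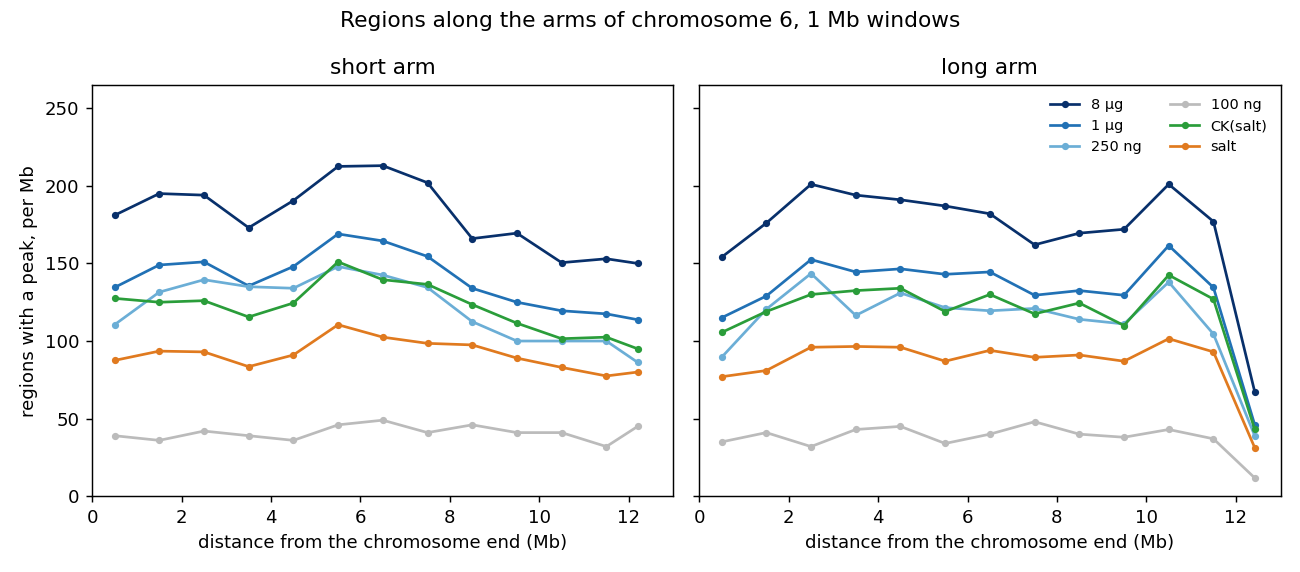
Regions with a peak per Mb (vertical axis) in 1 Mb windows by distance from the chromosome end in Mb (horizontal axis), short arm left and long arm right. Lines are means of 2 libraries for 8 µg, 1 µg, 250 ng, CK(salt) and salt, and the single library for 100 ng; the last point of each panel is the incomplete window next to the middle, which drops on the long arm.

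Peak widths of the arms lay close together, and their difference did not pass the test. The median width in the 8 µg libraries was 430.5 and 442.5 bp on the short arm and 433 and 446 bp on the long arm. In the 250 ng libraries it was 495 and 513 bp on the short arm and 485 and 522 bp on the long arm. Over the 13 input libraries the log2 ratio of short to long arm was -0.01 ± 0.04 (SD, n = 13), with the short arm wider in 5 and narrower in 8 (exact sign-flip test, adjusted p = 0.26). With lists cut to equal length it was -0.082, with the short arm wider in 1 of 13, and passed (exact sign-flip test, adjusted p = 0.00122). The arms together differed from the other chromosomes by 0.0052 ± 0.011 on the log2 scale (SD, n = 13, exact sign-flip test, adjusted p = 0.161), and by mean instead of median width by 0.016, which passed (exact sign-flip test, adjusted p = 0.000407).

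The authors' fold enrichment at the summit, compared within each list, was slightly higher on the short arm in the lists as deposited, a call that no alternative setting kept. The mean log2 ratio of the arm medians was 0.02 ± 0.02 (SD, n = 13), with the short arm higher in 9 of 13 (exact sign-flip test, adjusted p = 0.0326). With equally long lists the direction turned, to -0.00076 with the short arm higher in 4 of 13, and the call was lost in each of the other 8 alternatives, among them a −log10 q of at least 5 (exact sign-flip test, adjusted p = 0.187) and arms trimmed by 1 Mb (adjusted p = 0.132 by the same exact test). It was also lost when 1 of 8 libraries was left out, namely either of the 8 µg or 5 µg libraries, replicate 2 of 3 µg, 1 µg or 250 ng, or the 100 ng library, with adjusted p up to 0.0651.

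**Figure D3:**
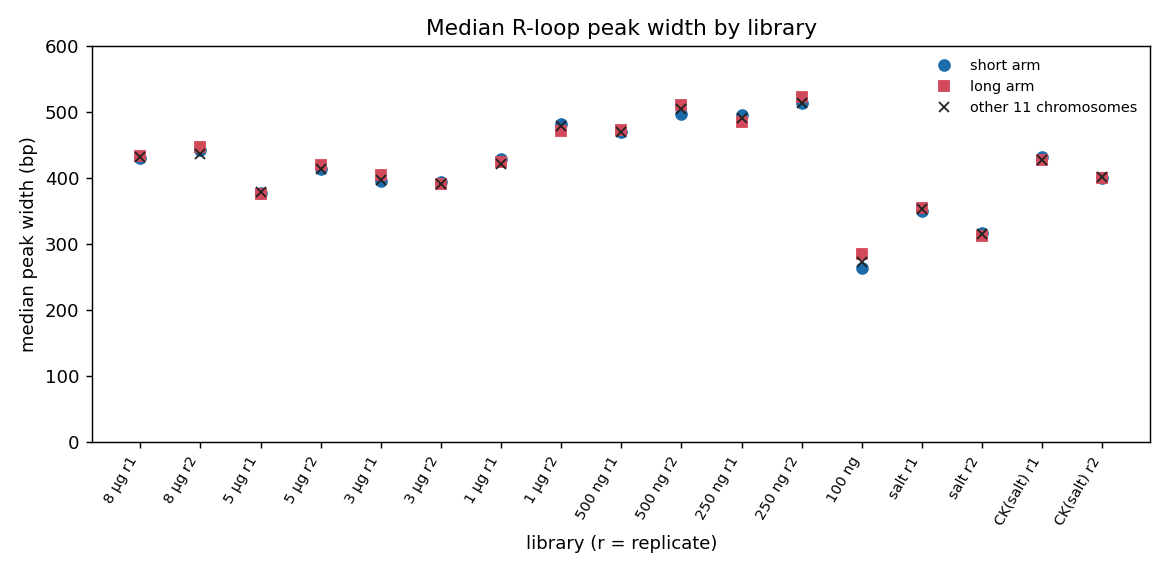
Median peak width in bp (vertical axis) in each of the 17 libraries (horizontal axis, r = replicate) for the short arm, the long arm and the other 11 chromosomes. Each point is the median of 1 library; the arms lie close together in each, while libraries range from 263.5 bp at 100 ng to 522 bp at 250 ng.

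The regions ranged from those seen once to those present in every library, with most in between. On both arms together, 2269 (36.8%) had a peak in 2 to 8 libraries, beside 37.3% of all regions of the genome. A further 2360 (38.3%) had a peak in 9 to 16, beside 37.9%. Of the short arm regions, 341 (11.1%) had a peak in all 17 libraries, and of the long arm regions 325 (10.6%), beside 10.6% of all regions of the genome. A peak in 1 library marked 418 regions (13.6%) of the short arm and 445 (14.5%) of the long arm, beside 14.2% genome-wide. Each of these shares lies near the genome's. The 8 µg lists held more of the single-library regions than any other pair of replicates: of 863 on both arms, they held 220 (25.5%) in replicate 2 and 162 (18.8%) in replicate 1. Replicate 1 of 250 ng held 81 and the 100 ng library 2.

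Occupancy, width and strength rose together in the arms. The median width was 253 bp for regions in 1 library, 296.5 bp for those in 2 to 8, 449 bp for those in 9 to 16 and 711.5 bp for those in 17, against 253, 295, 447.5 and 689 bp over all chromosomes. The median percentile of the peak score within its own list rose from 10.3 to 22.1, 50.5 and 85.2 over the same classes. Between replicate lists, the shared length over the joint length (Jaccard index) was 0.678 on the short arm and 0.675 on the long arm at 8 µg. It was 0.646 and 0.644 at 250 ng, and lowest in the input series at 1 µg, with 0.489 and 0.506. The salt replicates shared 0.479 and 0.481, and the CK(salt) replicates 0.603 and 0.596.

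**Figure D4:**
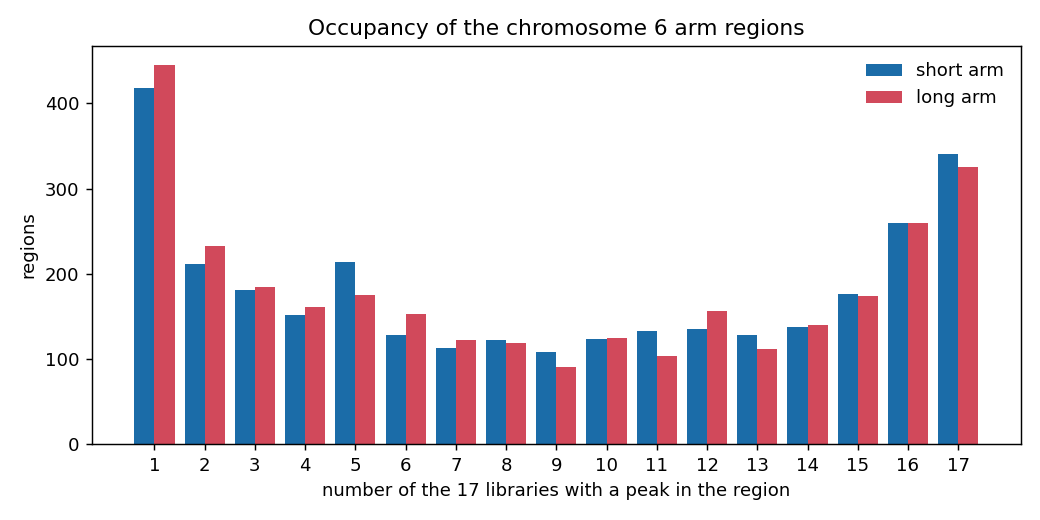
Number of regions (vertical axis) by the number of the 17 libraries with a peak in the region (horizontal axis), for the short arm and the long arm. Both arms show the most regions at 1 library (418 and 445) and a second rise to 17 libraries (341 and 325).

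The strongest regions present in all 17 libraries were ranked by the median percentile of their score. Those named on the long arm lay 1.38 to 5.25 Mb from the chromosome end, and those on the short arm 0.308 to 10.9 Mb. On the short arm they were led by chr6:10853621-10855080, whose score stood at a median percentile of 99.75 and whose width ran from 995 to 1428 bp with a median of 1324 bp. It was followed by chr6:9808286-9809161 (width median 732 bp), chr6:307859-308836 (670 bp), chr6:1191098-1193694 (1090 bp) and chr6:2432028-2433184 (567 bp). On the long arm the leading region was chr6:29230898-29232359, at a median percentile of 99.80 and a median width of 597 bp. The next were chr6:29871347-29871944 (489 bp), chr6:25994025-25994611 (480 bp), chr6:27718149-27719374 (1064 bp) and chr6:27480081-27481935 (1048 bp). The leading long arm region lay just before the stretch of 90921 bp without peaks named above. These 10 regions had median widths from 480 to 1324 bp, on both sides of the 711.5 bp median of arm regions with a peak in all 17 libraries.

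Among regions with a peak in all 17 libraries, the widest of the short arm by median width were chr6:10357400-10359444 with 1705 bp, chr6:11404157-11406926 with 1642 bp and chr6:1166749-1168493 with 1625 bp. Those of the long arm were chr6:22424235-22426155 with 1812 bp, chr6:30471957-30474736 with 1640 bp and chr6:20169177-20171006 with 1556 bp. In each of these 6 regions the 100 ng library had the narrowest peak, from 270 to 930 bp. The first of the long arm, chr6:22424235-22426155, measured 1790 and 1812 bp in salt and 1853 and 1559 bp in CK(salt), so that the groups overlapped. In chr6:30471957-30474736 the salt widths of 1277 and 1147 bp lay below the CK(salt) widths of 1614 and 1606 bp.

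The input series compares libraries made from less and less DNA. Peak density of both arms rose with input. From the largest amount to 250 ng, the short arm means were 194 ± 8.55, 153 ± 16.7, 154 ± 16.8, 149 ± 12.6, 132 ± 0.969 and 127 ± 4.45 peaks per Mb (SD, n = 2 for each amount), and the 100 ng library (n = 1) had 42.3. The long arm means were 184 ± 9.85, 145 ± 17.9, 144 ± 23.1, 141 ± 9.58, 122 ± 2.48 and 119 ± 1.49, and 39.0 at 100 ng. The 5, 3 and 1 µg libraries overlapped on both arms, and the 8 µg libraries lay above and the 100 ng library below the other input libraries.

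Across the 13 libraries, the density of the short arm correlated with log2 input at r = 0.757 (permutation p = 5.0e-05, adjusted p = 0.000315 over 7 relations; rho = 0.925). The long arm gave r = 0.758 (permutation p = 9.0e-05, adjusted p = 0.000315; rho = 0.903). Without the 100 ng library and replicate 1 of 8 µg, 2 libraries farthest from the median input, r was 0.81 and 0.787, and without replicate 2 instead it was 0.799 and 0.78. Within runs of neighbouring library codes in the peak names, which kept 8 libraries, r was 0.900 on the short arm and 0.891 on the long arm, and neither passed (exact permutation test, adjusted p = 0.122 for each). With lists cut to equal length, which fixes the number of peaks, r was -0.318 and 0.0342. Background coverage itself rose with input (r = 0.733, permutation p = 0.00061). At constant background coverage the relation of density was r = 0.278 (permutation p = 0.355) and 0.283 (permutation p = 0.346). Without the 100 ng library the values at constant background coverage were 0.724 (permutation p = 0.00698) and 0.662 (permutation p = 0.0187).

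Peak width ran the other way once the 100 ng library was set aside. Over all 13 libraries the width had no relation to input past the threshold (short arm r = 0.051, permutation p = 0.883, rho = -0.316; long arm r = -0.00286, permutation p = 0.993, rho = -0.327). Without the 100 ng library, whose medians of 263.5 and 285 bp were the lowest, r was -0.787 on the short arm and -0.758 on the long arm, with permutation p adjusted to 0.00912 and 0.00961. In the same order from 8 µg to 250 ng, the short arm means were 436.5 ± 8.49, 395 ± 25.5, 394.5 ± 0.707, 455 ± 37.8, 483.5 ± 19.1 and 504 ± 12.7 bp (SD, n = 2 for each amount). The long arm means were 439.5 ± 9.19, 397.5 ± 31.8, 397.5 ± 9.90, 448 ± 32.9, 492 ± 27.2 and 503.5 ± 26.2 bp. At constant background coverage, with the 100 ng library kept, r was -0.797 and -0.791 (permutation p adjusted to 0.00602 for each).

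The same regions compared between amounts gave the opposite picture to the medians of whole lists. Of the short arm regions with a peak in all 12 libraries of 250 ng and more, 51 of 788 (6.47%) were narrower in each of the 4 libraries of 500 and 250 ng than in each of the 8 libraries of 1 µg and more, beside 6.57% genome-wide. The reverse held for 18 (2.28%), beside 2.53% genome-wide. On the long arm 49 of 751 (6.52%) were narrower and 23 (3.06%) wider. The median change in log2 width, low minus high input, was -0.09 on each arm and -0.08 over all chromosomes. The medians of the 500 and 250 ng lists were thus higher while these shared regions were, at the median, narrower there, and the arms stood near the genome in each share.

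No relation of either arm ratio with input passed the threshold. The relation of the short to long arm density ratio with input was r = -0.31 (permutation p = 0.302, adjusted p = 0.422) and that of the width ratio r = 0.355 (permutation p = 0.243, adjusted p = 0.422). The share of all peaks that fell on the arms, between 6.90% and 7.08% in the 17 libraries, rose with input (r = 0.648, permutation p = 0.0168, adjusted p = 0.0393; rho = 0.67). With peaks of −log10 q of at least 5 and with equally long lists the direction turned, to r = -0.288 and -0.208. The call was lost with arms trimmed by 1 Mb (r = 0.203, permutation p adjusted to 0.727) and with the replicate block (r = 0.672, permutation p adjusted to 0.0504). It was also lost without the 100 ng library (r = 0.551, permutation p adjusted to 0.0911), within the runs of library codes (r = 0.684, exact permutation p adjusted to 0.272) and at constant background coverage (r = 0.567, permutation p adjusted to 0.0981).

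The difference between the arms in how many 8 µg regions smaller inputs recovered did not pass the test. For recovery the 8 µg lists were merged on their own, which gave 2042 regions with a peak in both on the short arm and 1967 on the long arm. On the short arm, 81.6 ± 7.48% were found again at 5 µg and 81.4 ± 6.51% at 3 µg (SD, n = 2 for each amount). The share was 75.3 ± 12.2% in the 1 µg, 61.8 ± 2.70% in the 500 ng and 56.1 ± 3.81% in the 250 ng libraries, and 24.6% in the 100 ng library. The long arm gave 82.7 ± 8.63%, 81.9 ± 9.35%, 75.2 ± 11.1%, 60.9 ± 3.27% and 55.5 ± 3.09%, and 24.5%. Over the 11 libraries the difference, short minus long arm, was 0.02 ± 1.28 percentage points (SD, n = 11, range -2.47 to 1.55, exact sign-flip test, p = 0.963).

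Recovery differed by the strength of the region in the 8 µg lists. The deciles of strength were not drawn within each arm, so they hold unequal numbers of its regions. Shares by decile over all chromosomes are not given here. At 250 ng, 92.9 ± 3.81% of the 204 short arm regions and 96.0 ± 0.376% of the 188 long arm regions in the strongest decile were found again (SD, n = 2). Of the weakest decile it was 28.0 ± 3.10% on the short arm (205 regions) and 19.9 ± 1.52% on the long arm (186 regions), a difference that was not tested. At 100 ng the strongest decile still returned at 87.3% and 87.8%, and the weakest at 0.488% and 1.61%.

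Few regions belonged to one end of the input series. A peak in all 8 libraries of 1 µg and more and in none of the 4 of 500 and 250 ng was found for 40 of 1091 short arm regions (3.67%) and 35 of 1074 long arm regions (3.26%), beside 3.03% genome-wide. The converse held for 10 of 1125 (0.889%) and 8 of 1065 (0.751%), beside 0.598%. Among the regions merged over the 17 libraries, a different merge from that used for recovery, those with peaks in both 8 µg libraries and no other input library numbered 55 of 1978 (2.78%) and 53 of 1911 (2.77%), beside 3.07%. The arms stood near the genome in each of these shares.

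The salt experiment compares seedlings under NaCl with their control. Both arms had fewer and narrower peaks in the salt libraries. On the short arm, density was 94.0 and 102.2 peaks per Mb in salt and 144.1 and 117.1 in CK(salt). The long arm had 89.4 and 95.2 in salt and 140.7 and 110.0 in CK(salt). The other 11 chromosomes had 87.8 and 96.1 in salt and 138.5 and 108.5 in CK(salt). The salt libraries lay below both controls on each arm. The log2 difference was -0.41 on the short arm (0.755-fold) and -0.43 on the long arm (0.742-fold), and by libraries of the same number and code run it was -0.62 and -0.20 on the short arm and -0.65 and -0.21 on the long arm. With lists cut to equal length, which fixes the number of peaks in each list, neither arm kept the difference. It was -0.017 on the short arm and 0.0069 on the long arm. With 2 libraries against 2 the exact permutation test gives p = 0.33, the smallest it can give. The background coverage was 6.74 and 3.88 in salt and 8.60 and 4.30 in CK(salt), and its part in the difference was not tested.

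Median width on the short arm was 350 and 316 bp in salt and 432 and 400 bp in CK(salt), and on the long arm 354 and 312 bp against 427 and 400 bp. On the other 11 chromosomes it was 352 and 315 bp in salt and 427 and 401 bp in CK(salt). The groups did not overlap on either arm. The log2 difference was -0.32 (0.800-fold) on the short arm and -0.31 (0.804-fold) on the long arm (exact permutation test, p = 0.33 for each). The ratio of short to long arm moved by 0.02 in density (exact permutation test, p = 0.667) and by -0.01 in width (p = 1 by the same exact test), both on the log2 scale. In the lists as deposited, 12 of 12 full 1 Mb windows on each arm were lower in both salt libraries than in both CK(salt) libraries. The salt lists were also shorter over the genome, with 32861 and 35907 peaks against 51710 and 40592 in CK(salt). Windows of other chromosomes and of equally long lists were not counted. The window differences ran from -0.54 to -0.29 on the short arm (median -0.44) and from -0.55 to -0.34 on the long arm (median -0.45), in log2.

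Region by region, loss was more frequent than gain, by a margin that depended on the length of the lists. For these counts the 4 lists of the salt experiment were merged on their own. Of regions with a peak in both CK(salt) libraries, 157 of 1293 on the short arm (12.1%, exact binomial 95% interval 10.4 to 14.0) and 163 of 1283 on the long arm (12.7%, 10.9 to 14.7) had none in salt, beside 12.8% genome-wide. Of regions in both salt libraries, 8 of 864 (0.926%, 0.401 to 1.82) and 4 of 827 (0.484%, 0.132 to 1.23) had no CK(salt) peak, beside 0.661%. These intervals cover counting error only. With lists cut to equal length, 69 regions were lost and 34 gained on the short arm and 52 lost and 29 gained on the long arm. Over all chromosomes the same lists gave 1635 lost and 998 gained. Leaving out any 1 of the 4 libraries gave 256 to 476 lost and 13 to 91 gained on the short arm and 242 to 501 lost and 12 to 75 gained on the long arm, the highest gains without replicate 1 of salt and the lowest without replicate 2 of CK(salt). Of the regions with a peak in all 4 libraries, 517 of 811 on the short arm (63.7%) and 480 of 783 on the long arm (61.3%) were narrower in both salt libraries than in both controls, beside 61.5%. Wider were 7 (0.863%) and 9 (1.15%), beside 0.957%. In these shared regions the median width was 395 and 385 bp in salt and 572 and 501 bp in CK(salt) on the short arm, and 410 and 393 bp against 591 and 511 bp on the long arm. The narrower peaks in salt were therefore also seen within the same regions, and the arms stood close to the genome in each of these counts.

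Loss under salt followed peak strength in CK(salt). The deciles were drawn over all chromosomes, with 3671 regions in the weakest and 3670 in the strongest. In the weakest decile, 54 of 123 short arm regions (43.9%) and 60 of 136 long arm regions (44.1%) were lost, against 45.8% over all chromosomes. In the strongest 3 deciles the short arm lost 0 regions, and the long arm lost 1, in the weakest of those 3 deciles.

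**Figure D5:**
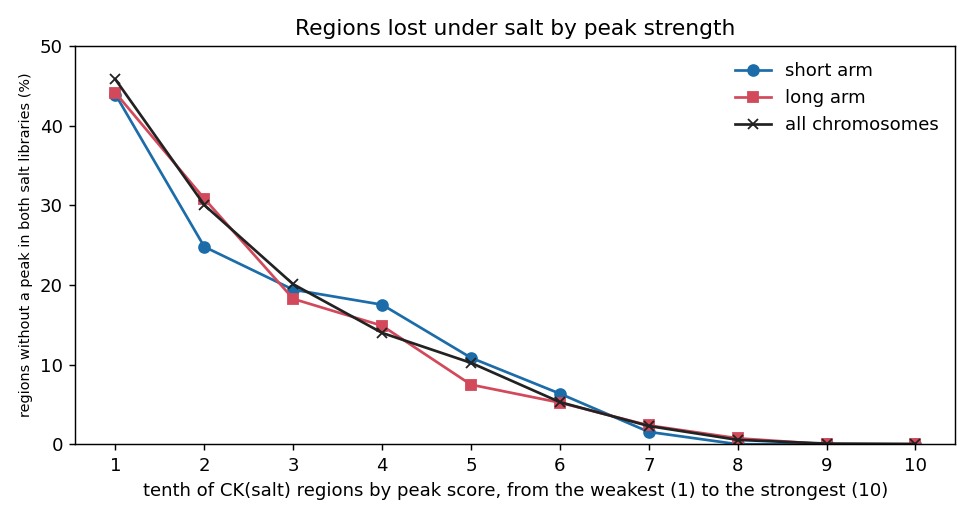
Share of CK(salt) regions with no peak in either salt library, in percent (vertical axis), by decile of their score in CK(salt) from the weakest to the strongest (horizontal axis), for the short arm, the long arm and all chromosomes. The share falls from 43.9%, 44.1% and 45.8% in the weakest decile to 0 or near 0 in the strongest.

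Among the gained regions of the short arm, chr6:11347696-11347929 ranked highest by score within the salt lists, at 11.5- and 12.7-fold enrichment there, and a peak in 4 of the 13 input libraries. The next were chr6:6650098-6650445, at 3.17- and 3.66-fold, and chr6:2306923-2307163, at 2.85- and 4.18-fold, with a peak in 9 and 5 input libraries. Those of the long arm were chr6:20755959-20756233 (2.55- and 3.87-fold), chr6:23409835-23410076 (2.77- and 3.31-fold) and chr6:19711429-19711868 (2.46- and 4.51-fold), with a peak in 9, 12 and 4 input libraries. Apart from the first short arm region, these were weak peaks of the salt lists. The lower of the 2 score percentiles was 99.2, 25.8 and 16.6 on the short arm. On the long arm it was 7.39, 5.42 and 0.572, and the higher was 39.1, 6.97 and 34.7. Counted in the input series, 8 of 8 on the short arm and 4 of 4 on the long arm had a peak in at least 1 input library. Few arm regions of any kind were found in 1 salt experiment library alone: 29 and 27 in salt and 31 and 11 in CK(salt). The share of all arm regions with an input peak was not counted, so these counts set the gained regions apart from no others.

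The lost regions that ranked highest by score on the short arm were chr6:8171761-8172279, at 6.07- and 6.14-fold in the CK(salt) lists, chr6:3791340-3791684 (5.80- and 5.60-fold) and chr6:10080072-10080884 (6.56- and 5.97-fold). They had a peak in 12, 5 and 12 of the 13 input libraries. On the long arm chr6:26958480-26958837 stood at 6.35- and 6.98-fold and was listed in 12 input libraries. Also on the long arm, chr6:25687661-25688060 reached 7.28- and 7.48-fold in CK(salt) with a peak in 1 input library, and chr6:30815285-30815829 reached 7.15- and 7.36-fold with a peak in all 13. Of the lost regions, 157 of 157 on the short arm and 161 of 163 on the long arm had a peak in at least 1 input library. In all 13 input libraries 1 and 5 had one. The matching shares of all regions were not counted.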

How the data were processed

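Peak lists of 18 libraries were used. Per the submitters' processing notes, Bowtie2 and MACS2 2.1.4 were run; the genome build, the control and the handling of duplicates are not given in the sources used here. Each deposited list gives the start and end of a peak, a score, the summit's fold enrichment as a ratio, and −log10 of its p-value and q-value, all computed by the authors' peak caller for each library. A fold or score was used only to describe or rank peaks within its own list. Lists were called per library, so the number and width of peaks move with depth; the most common background coverage that solves the fold and p-value of a summit stood for depth, and it was found for 90.1% of summits in the 100 ng library and nearly all in the others.

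Peaks were read as intervals whose start lies just before their first base, and merged at 1 bp overlap. Printed positions are counted from 1. Arms were compared within libraries by exact sign-flip tests on log2 ratios, with Benjamini-Hochberg adjustment over 5 arm comparisons. Relations with log2 input used permutation tests (100000 resamples, or exact), adjusted over 7 relations, and salt was compared with CK(salt) by exact permutation. Tests are two-sided. Simulated data were used to check the estimates of the density and width ratios, the slopes with input, the share lost and the background coverage, but not the p-values. Widths per region and library are the sum of the peaks in it. The regions named are those with the highest score and the widest, both among regions with a peak in all 17 libraries. Also named are the gained and lost regions with the highest within-list percentile in the weaker library, and the longest free stretches of each arm. The regions and lists were chosen with earlier results of these data known. The alternatives were a stricter q-value, equally long lists (the top 14845 peaks of each input list and the top 32861 of each salt experiment list), trimmed arms, mean width, means per amount, 50% reciprocal overlap, replicate and code-run blocks, constant background coverage and leaving out libraries. Code runs are series of neighbouring library codes in the peak names, and what they stand for is not stated. Python, NumPy, SciPy and pandas were used.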

Additional observations from a re-analysis of the deposited data

How the results depend on the processing

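Direction and call held for the density of the arms against each other and against the other chromosomes in 9 of 10 alternatives each. Within replicate number 2 they were 0.080 and 0.044 (log2) with adjusted p = 0.0781 by the exact sign-flip test, the smallest possible there. Among peaks with −log10 q of at least 5, the fold ratio was 0.011 and the short arm width relation with input r = -0.0302. The arm share relation was r = -0.288, and the salt change of the density and width ratios -0.012 and 0.01. Gained regions numbered 3 and 1, beside 83 over all chromosomes. With equally long lists, which fix the number of peaks, the width ratio of the arms was -0.082 (now past the threshold), the fold ratio -0.00076, the width against other chromosomes -0.0029, and the relations with input -0.318 (short arm density), 0.0342 (long arm density), 0.382 (long arm width), -0.51 (width ratio) and -0.208 (arm share). Under salt the same lists gave -0.017 and 0.0069 for short and long arm density, and -0.024 and 0.016 for the density and width ratios. Gained regions numbered 34 and 29 there and lost regions 69 and 52, beside 998 and 1635 over all chromosomes. With 50% reciprocal overlap 56 and 55 regions were gained and 237 and 264 lost, beside 1572 gained and 6889 lost over all chromosomes. With arms trimmed by 1 Mb the fold ratio was 0.012, the arm share relation 0.203 and the salt width ratio 0.0027. By mean width, the arms were wider than other chromosomes by 0.016 (adjusted p = 0.000407, exact sign-flip test) and the long arm width relation was 0.11. The fold ratio missed the threshold at 0.015 by means per amount, without 100 ng and without 8 µg, and at 0.011 without the 2 Mb next to the middle, an alternative chosen after seeing the data. Without 100 ng the width relations were -0.787 and -0.758, the width ratio relation -0.115 and the arm share 0.551. Within code runs the density relations were 0.900 and 0.891 (calls lost), short arm width -0.893 and arm share 0.684. At constant background coverage they were 0.278, 0.283, -0.797 (long arm width -0.791) and 0.567, with -0.296 for the width ratio. The cause was not tested.

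The replicate numbers were not shown to pair the libraries. With the replicate block the short arm width relation was -0.000787 and the arm share 0.672, the fold ratio was 0.0046 within number 1 and 0.028 within number 2, and the recovery difference within number 2 was -0.525 percentage points. The salt differences keep their value under a block by construction, -0.41 and -0.43 for density, and with 2 pairs the test cannot go below p = 0.5 (exact sign-flip test), so its 0 calls of 6 say nothing of stability or pairing. Deviations of same-numbered salt and CK(salt) libraries over 24 windows correlated at -0.119, and crossed numbers, added after seeing the data, give 0 calls of 6 under the same bound.

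Leaving out each library in turn gave 0.088 to 0.097 for the density ratio, -0.017 to -0.0045 for the width ratio, 0.012 to 0.018 for the fold ratio, 0.044 to 0.047 for density and 0.0032 to 0.0066 for width against other chromosomes. Relations with input ran from 0.727 to 0.833 and 0.727 to 0.817 for density, -0.787 to 0.178 and -0.758 to 0.139 for width (the lowest of each without 100 ng), -0.54 to -0.22 for the density ratio, -0.115 to 0.526 for the width ratio and 0.551 to 0.71 for the arm share, whose call was lost without replicate 1 of 5 µg, 1 µg, 500 ng or 250 ng, replicate 2 of 3 µg or 250 ng, or 100 ng. Salt differences ran from -0.556 to -0.257 and -0.609 to -0.253 for density, -0.396 to -0.248 and -0.406 to -0.223 for width, -0.0032 to 0.053 for the density ratio and -0.025 to 0.010 for the width ratio. Gained regions ran from 13 to 91 and 12 to 75, and lost regions from 256 to 476 and 242 to 501, in the order short and long arm, since fewer libraries then define them. The recovery difference ran from -0.133 to 0.268 percentage points.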
